A study of Ramazzottius varieornatus with 27 samples.

Results

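The step from 6 h to 9 h after irradiation was examined in whole-body RNA of the tardigrade Ramazzottius varieornatus. It is covered by 6 of the 27 libraries, 3 at each time, and 12820 of the 14532 transcripts in the table were tested, those that reached 1 in 3 or more of the libraries. Each sample held 30 animals that had received 500 Gy of gamma ray from a cobalt source and were then kept on plates until sampling. The other libraries came from non-irradiated controls and from animals at 4, 12, 15, 18, 21 and 24 h after the same dose, with 3 libraries in each group. The controls have no sampling time in the labels, so time on the plate and irradiation cannot be told apart in comparisons with them. By the methods the 3 samples of a group are technical replicates drawn from animals irradiated together, so the p-values below take in only the spread among such samples.

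Tardigrades are small animals that survive drying and very high doses of ionizing radiation. In animal cells such radiation breaks DNA and produces reactive oxygen species, and the early transcriptional answer is known for DNA repair genes and antioxidant enzymes. The transcripts of the table carry only IDs. None of the IDs matched the gene table used here, so roles cannot be given, and transcripts are described by their behaviour.

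Both 6 h replicate 3 and 9 h replicate 1 are shown apart from their groups below. By the methods, 6 h replicate 3 was amplified with the number of PCR cycles used at 9 h, while 6 h replicates 1 and 2 had fewer. Adapter dimers are reported for 9 h replicate 1. The number of tested transcripts with a value above 0 was 12442, 12575 and 12309 in 6 h replicates 1, 2 and 3, and 9516, 11519 and 12136 in 9 h replicates 1, 2 and 3. There were 1875 transcripts listed at 0 in 9 h replicate 1 and above 0 in each of the other 5 libraries, against 107 for 9 h replicate 2 and 4 to 16 for each of the others. Across tested transcripts, Pearson's r was 0.965 to 0.977 between 6 h libraries and 0.953 between 9 h replicates 2 and 3. Between 9 h replicate 1 and each of the other 5 it was 0.879 to 0.89. Between the 6 h libraries and 9 h replicate 2 it was 0.931 to 0.945, and with 9 h replicate 3 it was 0.948 to 0.960. So 9 h replicate 3 was closer to 6 h replicate 3 (0.960) than to either other 9 h library. The points of these correlations are transcripts that share a library and its scaling factor, and r is given as a description.

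In the step from 6 h to 9 h, 220 transcripts were called (1.72% of those tested), which belong to 219 genes. With 1 library of either time left out the number of calls was 22 to 401, lowest without 6 h replicate 2 (22) and 6 h replicate 1 (76) and highest without 9 h replicate 3 (401). A fit to the 6 libraries alone gave 0 calls with limma, where 2014 transcripts had an unadjusted p under 0.05. Of the 220, 95 (0.741% of those tested) were higher at 9 h and 125 (0.975%) were lower. Limma was fitted to log2(value + 1) of all 27 libraries, and a call needed group means more than 2-fold apart together with an adjusted p (Benjamini-Hochberg) under 0.05. This log scale understates the change of low transcripts. The values are TMM-normalized TPM, which is the share of a transcript after division by its length, times a scaling factor per library. They keep no read depth. In whole animals, fewer cells of a type and less RNA per cell cannot be told apart. With the TMM factor undone, the share of calls that were higher at 9 h moved from 43.2% to 54.3%. With 1 library left out it was 22.4% to 63.2%, so which direction had more calls turned: leaving out 6 h replicate 1 gave 63.2%, and leaving out 9 h replicates 1, 2 and 3 in turn gave 53.4%, 23.5% and 22.4%. With the factor undone, the call was kept by 95 of the higher and by 95 of the lower ones. The median log2 change over all tested transcripts was -0.11 with the factor and -0.06 without it. Without the fold threshold, 514 transcripts passed (211 higher, 303 lower), and 2775 (21.6%) had an unadjusted p under 0.05.

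The median log2 change was 1.66 for the higher transcripts (median standard error 0.38) and -1.43 for the lower ones (median standard error 0.34). The ratio of group means was over 4 in 31 of the 95 and in 36 of the 125. The higher transcripts had a median group mean of 14.2 at 6 h and 45.6 at 9 h, and the lower ones 47.9 and 18.6. In 94 of the 95 the 3 values at 9 h all lay above the 3 at 6 h, beside 9.43% of all tested transcripts. In 121 of the 125 they all lay below, beside 14.2%. The same values chose the members, so nothing is read from these counts. The median SD of log2(value + 1) over all tested transcripts was 0.22 at 6 h and 0.41 at 9 h, and in the lower list it was 0.27 and 0.52. In the higher list it was 0.42 at 6 h and 0.35 at 9 h.

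**Figure D1:**
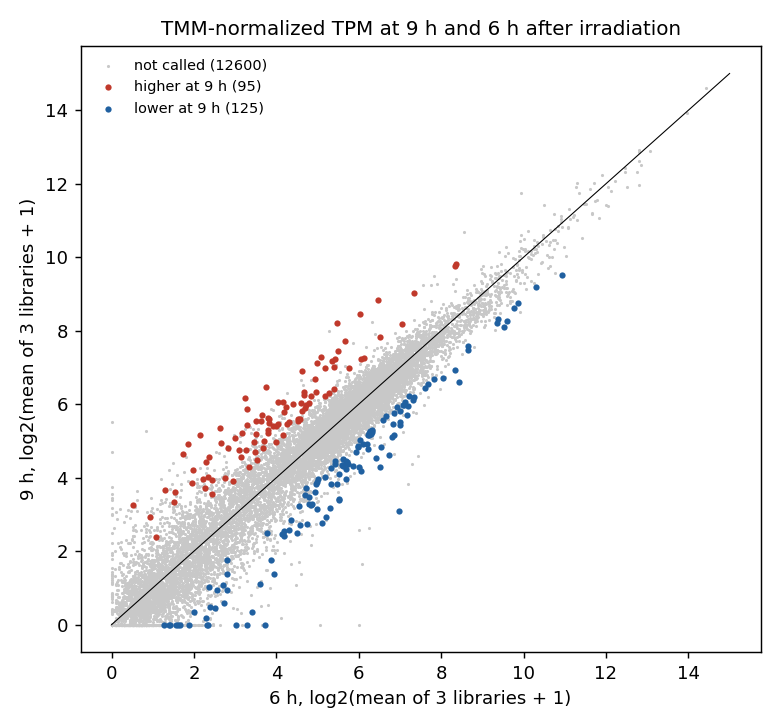
Mean level of each of the 12820 tested transcripts at 6 h (x axis) and 9 h (y axis), both as log2 of the mean TMM-normalized TPM of 3 libraries plus 1, with the line of equality. The 95 transcripts called higher and the 125 called lower lie along both edges of the cloud, and 12 of the lower ones were listed at 0 in all 3 libraries at 9 h.

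The calls were spread over the range of levels, with few rises among the lowest. By the mean over all 27 libraries, the 3205 tested transcripts of the lowest quartile (mean up to 3.98) held few rises and 18 falls. The next quartile held 39 rises and 35 falls, the third 32 and 37, and the highest (mean over 71.8) 21 and 35. Loss of all signal was more common than gain. Among the 12820 tested transcripts, 155 were above 0 in all 3 libraries at 6 h and listed at 0 in all 3 at 9 h, of which 11 were called. The reverse was seen for g263.t1, singled out after its values were seen. It was listed at 0 in every library up to 6 h, and was at 12.6, 8.66 and 2.63 in 9 h replicates 1, 2 and 3 (limma adjusted p = 0.0808, not called). At 12 h it was back at 0 in 2 libraries and at 0.010 in the third, and it was above 0 again in 18 h replicate 1, 21 h replicates 2 and 3 and 24 h replicate 2 (2.91 to 21.5). Each 9 h library listed fewer tested transcripts above 0 than any 6 h library, and 9 h replicate 1 far fewer than the others. The part of detection in these counts was not tested.

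The transcripts with the widest gap between the 6 libraries illustrate both directions. The transcript g761.t1 was at 34.5, 45.4 and 50.2 in 6 h replicates 1, 2 and 3 and at 226, 429.8 and 236 in 9 h replicates 1, 2 and 3. Both libraries set apart lay with their own group, 6 h replicate 3 on the low side and 9 h replicate 1 on the high side. This was built in, as the transcript was chosen for groups without overlap. The mean went from 43.3 ± 8.04 to 297 ± 115 (SD, n = 3), a log2 change of 2.70 (standard error 0.76, limma adjusted p = 0.049). In each of the 6 fits with 1 library of 6 h or 9 h left out, this call was lost (adjusted p = 0.0580 to 0.174), with a log2 change of 2.40 to 2.87. The other model of this gene, g761.t2, was at 42.8, 10.2 and 6.45 at 6 h and at 0, 0 and 33.0 at 9 h. The gene's summed values were 77.3, 55.5 and 56.6 at 6 h and 226, 429.8 and 269 at 9 h. With models summed per gene, g761 was called (log2 change 2.23, limma adjusted p = 0.00519).

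The transcript g6031.t1, the only model of its gene in the table, was at 5.996, 3.16 and 1.09 in the 6 h libraries and at 27.2, 47.7 and 29.4 in the 9 h libraries. Its lowest value was in 6 h replicate 3, the library that shares the number of PCR cycles with 9 h. That library took part in choosing this transcript, and the part of PCR cycles in the rise was not tested. The mean rose from 3.42 ± 2.46 to 34.7 ± 11.2 (SD, n = 3), a log2 change of 3.14 (standard error 0.52, limma adjusted p = 0.00542). The call held in each of the 6 fits with 1 library left out, with an adjusted p of 0.00664 to 0.0471. The 9 h level was nearer to the controls than the 6 h level. In the controls g6031.t1 was at 69.3, 53.2 and 44.3 and at 4 h at 2.71, 4.73 and 21.2, a log2 change of -2.84 (limma adjusted p = 0.00825). The 12 h values were 7.67, 22.2 and 14.4, below the controls again (log2 change -1.93, limma adjusted p = 0.00843), and those of 24 h were 36.4, 51.0 and 54.8. The transcript g761.t1 also had its lowest values at 6 h and in a 4 h library, with 158, 122 and 255 in the controls, 2.66, 87.8 and 125 at 4 h, 79.5, 119 and 77.5 at 12 h and 217, 241 and 235 at 24 h. Its differences from the controls at 4 h and 12 h were not called (limma adjusted p = 0.244 and 0.446).

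Among the falls, g13797.t2 was at 12.7, 7.62 and 16.3 in the 6 h libraries and was listed at 0 in all 3 at 9 h (limma adjusted p = 0.0336). The call was lost with each of the 6 libraries left out in turn (adjusted p = 0.0532 to 0.124). The other model of the gene, g13797.t1, was at 15.2, 18.7 and 8.99 at 6 h and at 24.8, 15.0 and 16.1 at 9 h. The sum of both models was 27.9, 26.4 and 25.25 at 6 h and 24.8, 15.0 and 16.1 at 9 h, which was not called (log2 change -0.52, limma adjusted p = 0.168). RSEM divides reads that models share. In the controls g13797.t2 was at 0.057, 20.1 and 0.065, so libraries of 1 group also differed in this model. The loss at 9 h was not held, with 22.9, 12.4 and 9.92 at 12 h and 0, 8.27 and 15.2 at 15 h. At 24 h g13797.t2 was listed at 0 in all 3 libraries.

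The transcript g12812.t1 has no other model in the table. It was at 6.80, 9.39 and 10.3 at 6 h and was listed at 0 in all 3 libraries at 9 h (limma adjusted p = 0.0112). The adjusted p was 0.0686 without 6 h replicate 2 and stayed under 0.05 with each other library left out. Control values were 10.1, 5.24 and 9.66, and 12 h values 4.63, 7.94 and 5.61, so the 9 h libraries lay below those of 6 h and 12 h. This low transcript was also listed at 0 in 15 h replicate 2 and at 0.719 in 21 h replicate 1. The part of detection in its fall was not tested.

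**Figure D2:**
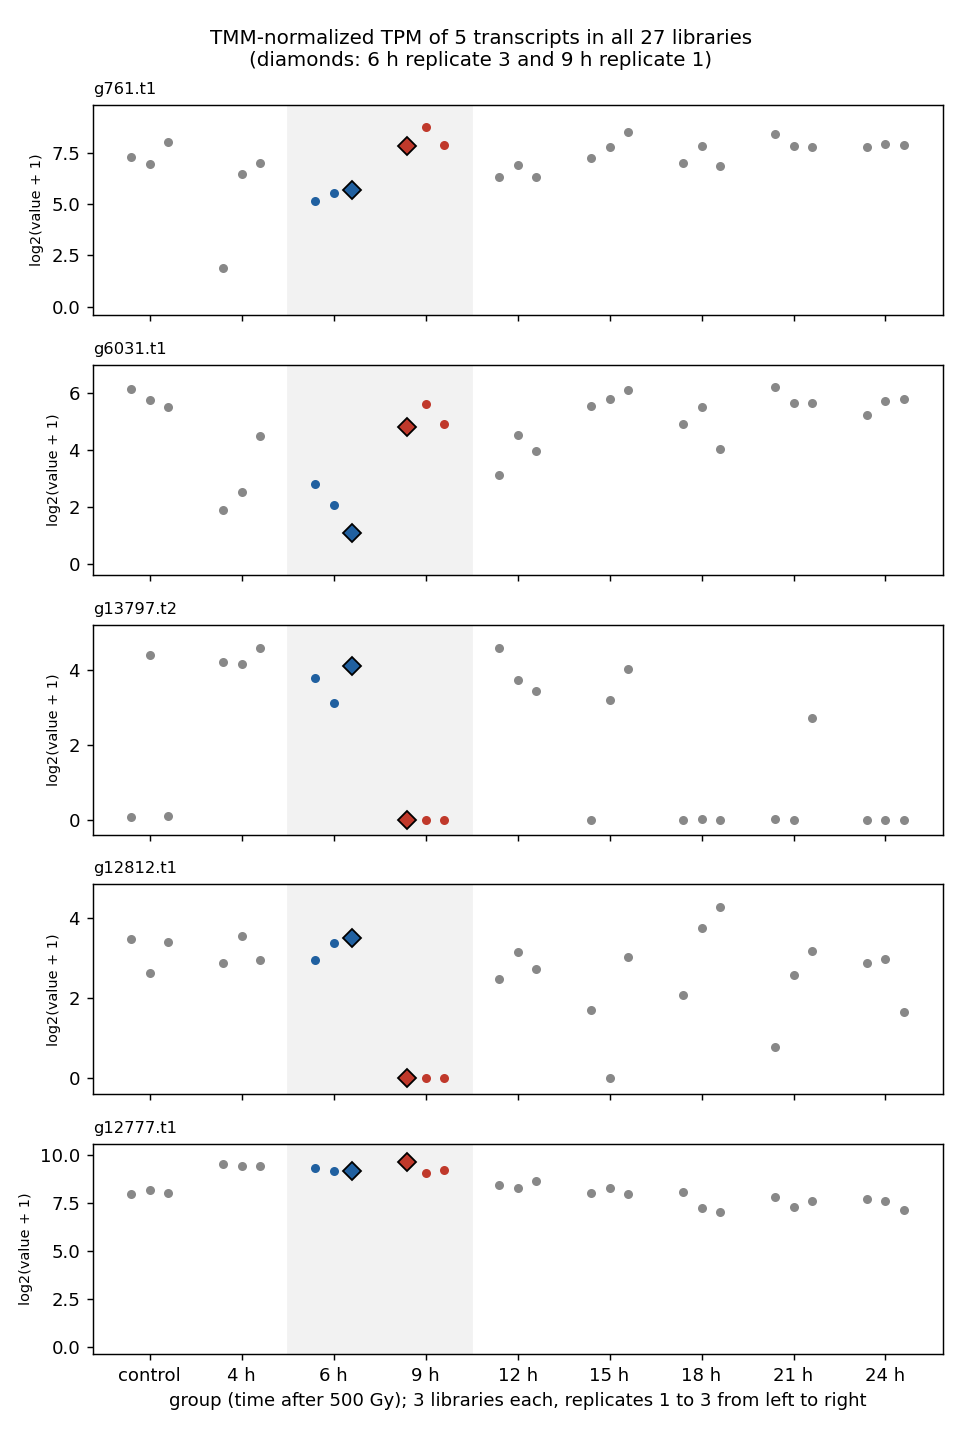
TMM-normalized TPM as log2(value + 1) (y axis) of 4 transcripts called between 6 h and 9 h and of g12777.t1 in each library of the 9 groups (x axis), with 6 h in blue, 9 h in red, and diamonds for 6 h replicate 3 and 9 h replicate 1. For g6031.t1 the 3 libraries at 6 h sit between 1.09 and 5.996 and those at 9 h between 27.2 and 47.7, while g12777.t1 overlaps between the 2 times.

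The transcript g12777.t1, the only model of its gene in the table, was not called in this step. It stood at 638, 580.2 and 577 in the 6 h libraries and at 809, 542 and 587 in the 9 h libraries, with overlapping groups and a log2 change of 0.09 (standard error 0.21, limma adjusted p = 0.845). Its mean was 266 ± 22.3 in non-irradiated animals, 699.8 ± 26.1 by 4 h and 351 ± 44.8 by 12 h (SD, n = 3). The difference between 4 h and the controls was 1.39 on the log2 scale (limma adjusted p = 0.0011), and that between 12 h and 4 h was -1.001 (limma adjusted p = 0.00278).

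Whether the same transcripts also differed between groups that the step did not compare was asked with 12 h against 4 h. There 4.91% of all tested transcripts were called in either direction. Every comparison uses the same estimate of spread per transcript, from all 27 libraries. A small estimate favours a call in the step, and so also calls of its members here and against the controls. How far this raised their shares was not tested. Of the 125 lower transcripts, 32 (25.6%) were called lower at 12 h than at 4 h, beside 3.54% of all tested transcripts, and of the 95 higher ones 17 (17.9%) were called higher, beside 1.37%. None of the 125 was called higher and none of the 95 lower (limma). The median log2 change was -0.75 in the lower list and 0.28 in the higher list, beside -0.09 in all tested transcripts. The difference was negative for 118 of the 125 and positive for 63 of the 95. The PCR cycles differ between 4 h and 12 h as they do between 6 h replicates 1 and 2 and 9 h. The count of 17 was 11 without 12 h replicate 1 and 9 without 12 h replicate 3, and the count of 32 was 23 to 29 with each library of these groups left out. The calls that hold in both steps numbered 49, and leaving out a library changed the lists themselves. They then numbered 12 (6 h replicate 1 left out), 7 (6 h replicate 2), 30 (9 h replicate 2) and 100 (6 h replicate 3).

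Of the 125 transcripts that fell, 116 were within 1 of the controls on the log2 scale at 4 h (94.3% of all tested were), and 64 lay below the controls by more than 1 at 24 h, beside 13.7% of all tested. Their median log2 change against the controls at 4, 12 and 24 h was -0.08, -0.77 and -1.01, beside 0.05, -0.05 and -0.08 in all tested transcripts. At 24 h 49 of the 125 (39.2%) were called lower than in the controls, beside 7.30% of all tested, and none was called higher (limma). At 12 h 41 (32.8%) were called lower, beside 6.46%. The count at 24 h was 40 to 49 with each control or 24 h library left out. These comparisons share the control libraries and are given side by side. The 24 h libraries had more PCR cycles than any other irradiated group, and the part of this was not tested. Over the lower list the median of log2(value + 1) was 5.67 to 5.90 in the controls and 5.64 to 5.89 at 4 h. At 6 h it was 5.76 and 5.70 in replicates 1 and 2 and 5.25 in replicate 3, at 9 h 3.45, 4.23 and 4.61 in replicates 1, 2 and 3, and from 12 h to 24 h 4.64 to 5.07. The 9 h libraries thus had the lowest medians, and as they chose the members a lower value there was built in.

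Some of the transcripts that rose were lower at 4 h than in the controls. The median log2 change of the 95 from control to 4 h was -0.78, beside 0.05 in all tested transcripts, and 14 (14.7%) were called lower at 4 h, beside 0.265%. None was called higher (limma), beside 0.25%. This count was 2 to 19 with each control or 4 h library left out, being 2, 8 and 4 when control replicates 1, 2 and 3 were dropped in turn, and 4 and 3 when 4 h replicates 1 and 2 were dropped. In 42 of the 95 the value at 4 h lay below the controls by more than 1 on the log2 scale, beside 2.64% of all tested transcripts. The number was 25 without 4 h replicate 1 and 38 to 48 with each other library of these groups left out. This limit of 1 was chosen after the values were seen.

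The levels of these 42 transcripts in the controls, at 4 h, 6 h and 9 h follow in part from how they were chosen, and are given as a description. Their median of log2(value + 1) was 5.75, 5.35 and 5.63 in the controls and 3.10, 3.80 and 4.47 in 4 h replicates 1, 2 and 3. At 6 h it was 4.16, 3.17 and 3.30, at 9 h 5.11, 5.71 and 5.49, and at 12 h 4.22, 4.59 and 4.17. No library of 4 h, 6 h or 12 h reached the lowest of the controls or of 9 h. From 15 h on the medians were 4.15 to 5.92, with a spread within 18 h from 4.15 to 5.32. Against the controls, whose libraries also chose these 42, 26 were called lower at 12 h, beside 6.46% of all tested. At 24 h, 35 of the 42 lay within 1 of the controls on the log2 scale, beside 79.8% of all tested. The median of all tested transcripts varied only between 4.68 and 4.87 over the 27 libraries.

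Of the other 53 rising transcripts, split off by not being low at 4 h, 50 were then within 1 of the controls on the log2 scale. As the control libraries took part in this split, it favoured higher values of the 53 against the controls. The median log2 change of the 53 against the controls at 4, 12 and 24 h was -0.13, 0.47 and 0.74. Of the 53, 12 were called higher at 12 h (22.6%), beside 3.84% of all tested, while 7.55% were called lower, beside 6.46%. At 24 h 19 (35.8%) were called higher, beside 4.64% (limma), and 34 were not called. Over the whole list of 95, which was not split, 20 (21.1%) were called higher at 24 h and 3.16% lower, beside 7.30%. The median log2 change of the 95 at 24 h was 0.18, and the count of 20 was 13 without control replicate 2. For the 53, the medians of log2(value + 1) were 4.31, 4.02 and 4.17 at 6 h, 5.52, 5.59 and 5.62 at 9 h and 5.05 to 5.16 at 12 h.

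**Figure D3:**
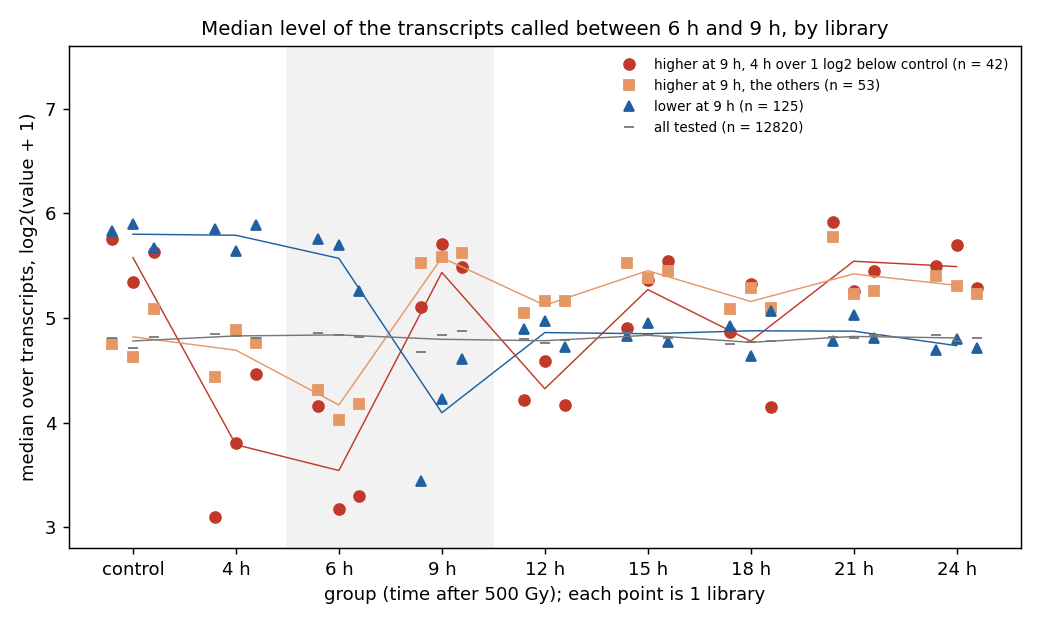
Median of log2(value + 1) over each list (y axis) in every library, by group (x axis), with lines through the mean of the 3 medians of a group. The 42 transcripts over 1 log2 below the controls at 4 h lie at 3.17 to 4.16 at 6 h, 5.11 to 5.71 at 9 h and 4.17 to 4.59 at 12 h, while the 125 lower ones lie at 5.64 to 5.89 at 4 h and at 4.64 to 5.07 from 12 h on.

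**Figure D4:**
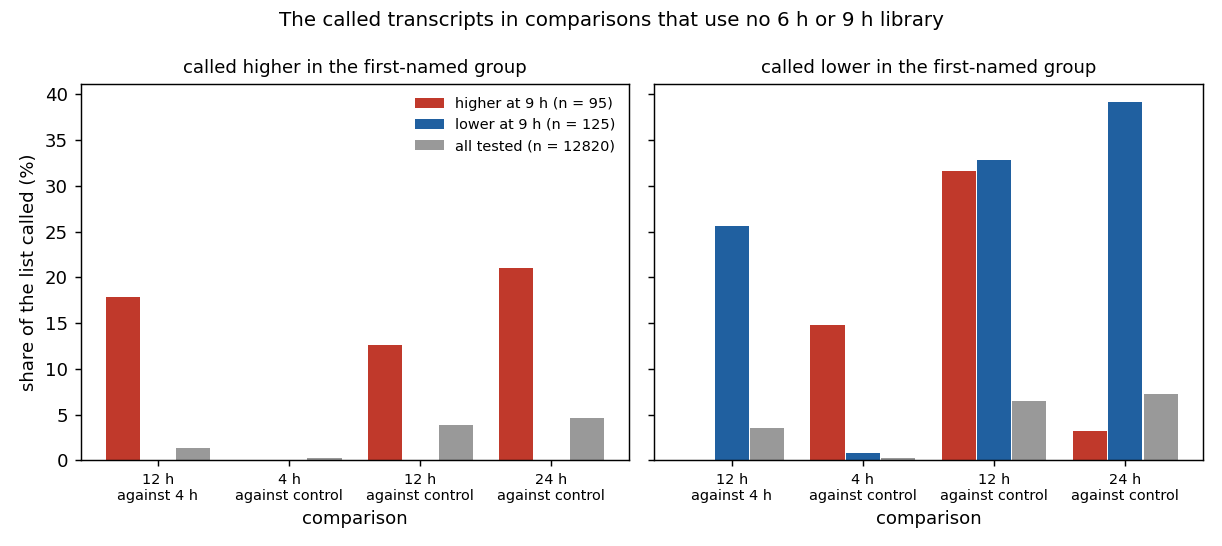
Share of the 95 higher, the 125 lower and all 12820 tested transcripts called (y axis, %) in 4 comparisons of other groups (x axis). Calls higher in the first-named group are on the left and calls lower on the right. The spread is estimated from all 27 libraries. Of the higher list 31.6% were called lower at 12 h than in the controls and 12.6% higher, while of the lower list 32.8% were called lower and none higher. Of all tested transcripts 6.46% were called lower in this comparison and 3.84% higher.

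The place of each library between the groups was measured over the transcripts called without it, as its distance from the mean of the other 6 h libraries (0) towards that of the other 9 h libraries (1). For 6 h replicate 3 the median place was 0.26 over 108 rises and 0.42 over 198 falls. It lay on the 9 h side of the midpoint for 30 of the 108 and 78 of the 198. For 6 h replicate 1 the median place was 0.41 over 48 rises and -0.03 over 28 falls, and for 6 h replicate 2 it was -0.21 and -0.03 over 11 each. So for the rises 6 h replicate 3 lay between both libraries with fewer PCR cycles, and for the falls it lay nearer to 9 h than either. The lists differ between the libraries placed, since each was chosen by the other libraries. Such a choice favours a place of the left-out library away from its own group. No difference between these places was tested.

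Set against 9 h alone, 6 h replicate 3 gave 0 calls with limma, with a lone library assumed to vary like the other groups. An unadjusted p under 0.05 was reached by 745 transcripts (5.81%). With 9 h replicate 1 set apart as well, 0 were called and 890 had such a p. With only 6 h replicates 1 and 2, which had fewer cycles than 9 h, 306 were called (108 higher, 198 lower), of which 175 were among the 220. Relative to 6 h replicate 3, 95 of the 95 higher transcripts were above it at 9 h, with a median log2 change of 1.64, and 124 of the 125 lower ones were below it, with a median of -1.20. Relative to 6 h replicates 1 and 2 the medians were 1.56 and -1.60. As 6 h replicate 3 was among the libraries that chose the members, these directions were favoured by that choice and are given as a description. Between 6 h replicate 3 and replicates 1 and 2, the call was g8602.t1, and 486 (3.79%) had an unadjusted p under 0.05.

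For the rises the 9 h libraries also divided, while for the falls their places lay closer together. Over the transcripts called without it, the median place of 9 h replicate 1 was 0.49 for 133 rises and 0.45 for 116 falls. It was 0.99 and 0.43 for 9 h replicate 2 and 0.88 and 0.35 for 9 h replicate 3. Without 9 h replicate 1, 66 of the 95 higher and 52 of the 125 lower transcripts were still called, within 249 calls in all. In the lower list 9 h replicate 1 had the lowest of the 3 values in 79 of the 125, and 43 were listed at 0 there, against 19 and 12 in replicates 2 and 3. In the higher list it had the lowest value in 55 of the 95 and the highest in 25, and none was listed at 0. Against 6 h, the median log2 change of the 125 was -1.87 in 9 h replicate 1 and -1.22 in replicates 2 and 3. That of the 95 was 1.49 and 1.74. Set against 9 h replicates 2 and 3, 9 h replicate 1 had a median log2 change of -0.58 over the 125 and -0.20 over the 95. Both subsets of 9 h were among the libraries that chose the members, so these medians are a description. The part of the low number of transcripts of 9 h replicate 1 in the falls was not tested.

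**Figure D5:**
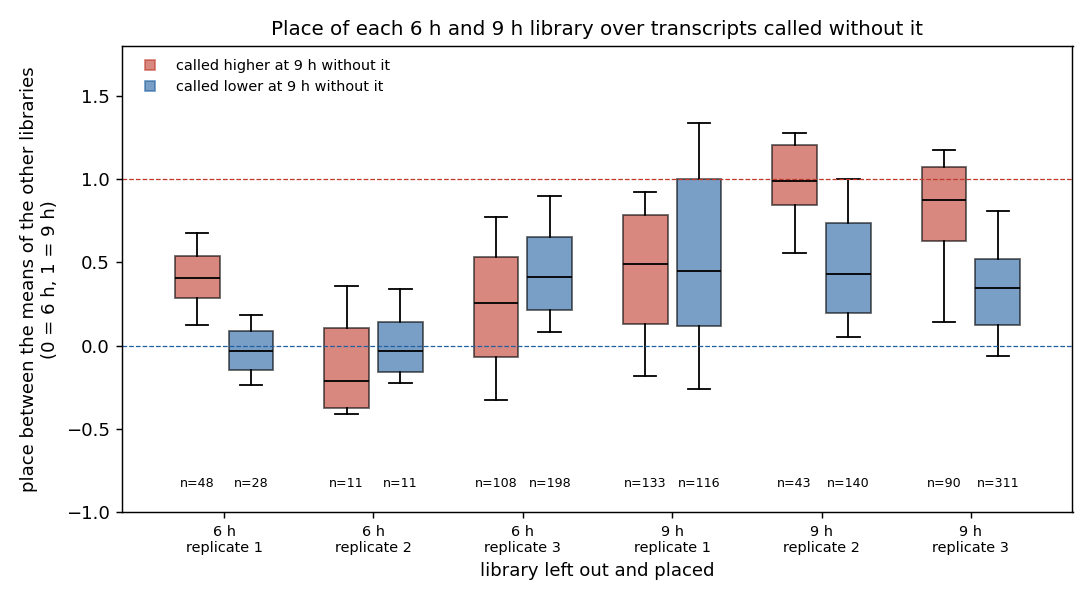
Place of each 6 h and 9 h library (x axis) between the means of the other 6 h (0) and 9 h (1) libraries (y axis), over the transcripts called without it; boxes show the quartiles with the median and whiskers the 10 to 90 percentiles over transcripts. The medians over rises and falls are 0.26 and 0.42 for 6 h replicate 3 and 0.49 and 0.45 for 9 h replicate 1. They are 0.99 and 0.43 for 9 h replicate 2 and 0.88 and 0.35 for 9 h replicate 3.

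Most called transcripts were the only model of their gene, as are most in the table, where 13369 of 13920 genes have 1 model. Of the 220 called transcripts, 12 belong to genes with more than 1 model in the table (8 higher, 4 lower), and for 8 of the 12 the sum of the models was not called in that direction. Summed per gene, 239 genes were called in all (99 higher, 140 lower). The gene g8602, singled out after its values were seen, had a model in each list. Its model g8602.t1 had 7.93, 4.13 and 0 in 6 h replicates 1, 2 and 3 and 0 in all 3 libraries of 9 h. The model g8602.t2 had 0, 0 and 4.38 in the 6 h libraries and 20.3, 9.30 and 5.41 in those of 9 h. The sum of both was 7.93, 4.13 and 4.38 at 6 h and 20.3, 9.30 and 5.41 at 9 h, which was not called (log2 change 0.84, limma adjusted p = 0.445). No library listed both models above 0, and 6 h replicate 3 listed the model found at 9 h. That model, g8602.t2, was also the one listed at 4 h (3.662, 2.246 and 4.195), where PCR cycles were fewer than at 9 h. Of both models, the controls listed only g8602.t1 (6.44 to 9.47). The part of PCR cycles in which model was listed was not tested.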

How the data were processed

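RNA of 27 whole-body samples was sequenced. The authors mapped reads to coding sequences with Bowtie2, estimated TPM per transcript with RSEM and scaled libraries by TMM. The signal deposited per transcript and library is the resulting TMM-normalized TPM, and columns sum to 891312 to 1140371. They are not counts, so the authors' DESeq2 test was not used here, and the values keep no depth from which counting error could be had. The study's read totals were not used here.

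Values were fitted as log2(value + 1) with limma 3.58.1 under R 4.3.3 (means of 9 groups, trend, Benjamini-Hochberg per comparison over 12820 transcripts). The fit was tested on simulated data. Libraries were compared by title. An exact permutation test of 3 against 3 cannot go below p = 0.1, so p-values rest on a spread pooled over 9 groups. Members and lists were chosen with earlier results of these data known. Named transcripts were called ones without overlap, with the 2 widest gaps on log2(value + 1) in each direction, plus g12777, fixed by its ID. Of the IDs, 0 matched the gene table, so gene lists were not used and no sequence is shown. Figures used Python 3.11.15 and matplotlib 3.10.9.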

Additional observations from a re-analysis of the deposited data

How the results depend on the processing

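The count of 220 calls (95 higher, 125 lower) lay within a factor of 1.5 with a pseudocount of 0.1 (198), no filter (198), the TMM factor undone (210.0), no trend (184), a robust prior (214), the fold on the log2 scale (219) and sums per gene (239). The cause of the following differences was not tested. Limma array weights, which give 9 h replicate 1 and others their own weight, called 712 (292 higher, 420.0 lower). No fold threshold called 514 (211 higher, 303 lower). The 6 libraries alone gave 0 calls (0 higher, 0 lower), with 2014 transcripts at an unadjusted p under 0.05. In that fit the spread comes from fewer libraries. With 6 h replicate 3 alone against 9 h, or against 9 h replicates 2 and 3, 0 were called in either direction (745 and 890.0 at an unadjusted p under 0.05, limma). With 6 h replicates 1 and 2 against 9 h replicates 2 and 3, 399 were called (183 higher, 216 lower, 140.0 of the 220 among them). Against all of 9 h, 6 h replicates 1 and 2 gave 198 lower calls.

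With 1 library of 6 h or 9 h left out, 22 to 401 transcripts were called (11 to 133 higher, 11 to 311 lower). The number was 76 without 6 h replicate 1 (68 of them among the 220), 22 without 6 h replicate 2 (20.0 among the 220) and 401 without 9 h replicate 3. The higher calls numbered 43 without 9 h replicate 2. The 49 calls shared with 12 h against 4 h ranged from 7 to 100 over these fits and were 184 with array weights. With a replicate block, 209 were called (93 higher, 116 lower, 197 of the 220 among them). The samples share only a number: deviations of same-numbered 6 h and 9 h libraries from their group means had a Pearson's r of 0.006, -0.018 and -0.012 over transcripts for numbers 1, 2 and 3, and not every library correlated best with its own number. Of the 21 alternatives run for each named transcript, g6031.t1 kept its call in 18, g12812.t1 in 17, g13797.t2 in 9 and g761.t1 in 6, with no change of sign. Leaving out a control, 4 h, 12 h or 24 h library, and holding the members under an undone TMM factor, were chosen after the data were seen.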
